A study of Rattus norvegicus with 9 samples.

Results

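The subject is a set of 214 sequences of 33 to 39 nt among the 5794 listed in a table of small RNA from the hippocampal CA1 region of the rat. The members were chosen by 4 conditions: a name that starts with novel_, a length of 33 to 39 nt, a mean of at least 10 over the 7 libraries whose column headings hold numbers, and no run of 16 bases shared with any of 6 other listed sequences. Of 489 such names in this length range, 254 fell under the mean and 21 of the remaining 235 shared a run and were left out. Because the mean level chose the members, their level is given as a description and is not tested. Just inside the threshold lay novel_2812_x2076 and novel_3332_x1628, both with a mean of 10.1, and just outside it novel_8090_x461 with 9.86 and novel_5213_x859 with 9.71.

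The libraries came from male Wistar rats of 7 to 8 weeks and fall into 3 groups of 3: HPC0h, tGCI26h (transient global cerebral ischemia, hour 26) and Sham. The labels do not expand HPC, give it the hour 0, and state no other treatment. HPC0h has 3 libraries with numbered column headings (a, b and c). tGCI26h and Sham each have 2 with numbered headings (a and b) and 1 whose heading holds no numbers (u). Each numbered heading holds 3 numbers, whose meaning is not stated. It is not stated whether a library is 1 animal or a pool, nor whether libraries of a group are separate animals, so the p-values reflect how these libraries vary, which may be technical variation. Values are normalised tags, scaled by the authors to library totals of 961372 to 992081; the sequencing depth behind them is unknown.

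Small RNA libraries made for PIWI-interacting RNAs (piRNAs) hold more than piRNAs. piRNAs are bound by PIWI proteins, are best known from the germ line, where they silence transposons, and often carry U as their first base or A at position 10. A library made by ligating adaptors to total RNA also takes in pieces of longer RNAs, and such pieces often appear as sets of sequences that start or end at the same base. CA1 holds pyramidal neurons known to die in the days after a brief global ischemia.

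The members were mostly overlapping versions of a small number of sequences. When members that share a run of 16 bases were joined, the 214 formed 49 families: 23 of 3 or more members, which hold 177 of them, 11 of 2, and 15 single members. The largest size, 20 members, was reached by 2 families. Family 1 held 19.5% of the summed mean level of all members, and the 5 families with the highest sums held 52.7%. The first 16 bases were shared with another member in 127 members, the last 16 in 82, and both in 46. There were 118 members of 33 to 35 nt and 96 of 36 to 39 nt.

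Family 1 shows the stepwise form most simply, since its 4 members and most of the shorter entries inside them share 1 start. Its last 7 steps are printed from 5′ to 3′, and the capital marks the base added at each step.
novel_636_x19428: ggcugguccgaagguagugaguuaucucaa
novel_2068_x3245: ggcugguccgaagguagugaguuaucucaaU
novel_828_x13446: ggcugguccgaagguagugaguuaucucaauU
novel_2455_x2502: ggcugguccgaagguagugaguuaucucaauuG
novel_5272_x845: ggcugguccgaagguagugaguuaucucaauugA
novel_2983_x1899: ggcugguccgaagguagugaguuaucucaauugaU
novel_7503_x513: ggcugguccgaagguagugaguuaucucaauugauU

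The leads of families 2 to 4 are printed because these families, with family 1, have the highest summed levels. In the lead of family 2 the capitals mark the bases past position 32, over which its value climbed a second time, and in that of family 3 the 3′ stretch common to the members that end there. Family 4 is given in lower case.
novel_9031_x397: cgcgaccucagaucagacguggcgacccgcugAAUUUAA
novel_7091_x554: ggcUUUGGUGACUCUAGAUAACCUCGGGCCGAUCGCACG
novel_14426_x210: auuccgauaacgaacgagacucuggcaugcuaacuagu

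A member was never lower than a shorter entry lying inside it. In 4959 pairs a shorter entry of the table lay wholly inside a member, and in all 4959 the member was at least as high in each of the 9 libraries. For members lying inside other members this held in 285 of 285 pairs, and over the whole table in 23774 of 23774. Where 2 members overlapped without one lying inside the other, the longer was at least as high in all 9 libraries in 148 of 425 pairs (34.8%). How tags were assigned to entries is not given in the sources used here. The levels of nested members are therefore not treated here as separate measurements, and a sum over members may count a tag more than once.

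Much of the members' level was also held by entries under 33 nt. In 210 of the 214 members an entry under 33 nt lay inside, and in 204 such an entry was above 0 in the numbered libraries. With the other members counted as 0, the highest inner entry held a median of 46.6% of the member's mean. It held at least 50% in 100 members and under 10% in 37. In family 1 the mean over the 7 numbered libraries was 37.4 at 30 nt, 128 at 31 nt and 438 at 32 nt, then 488, 528, 538 and 629 at 33 to 36 nt, so that 69.7% of the value of novel_7503_x513 was already present in novel_828_x13446. In family 2 the largest part came later: the 32-nt entry held 46.8% of the value of novel_9031_x397, and the mean was 183 at 35 nt, 228 at 36 nt, 276 at 37 nt, 282 at 38 nt and 303 at 39 nt. In family 3 the highest inner entry under 33 nt held 1.61% of the value of novel_7091_x554.

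**Figure D1:**
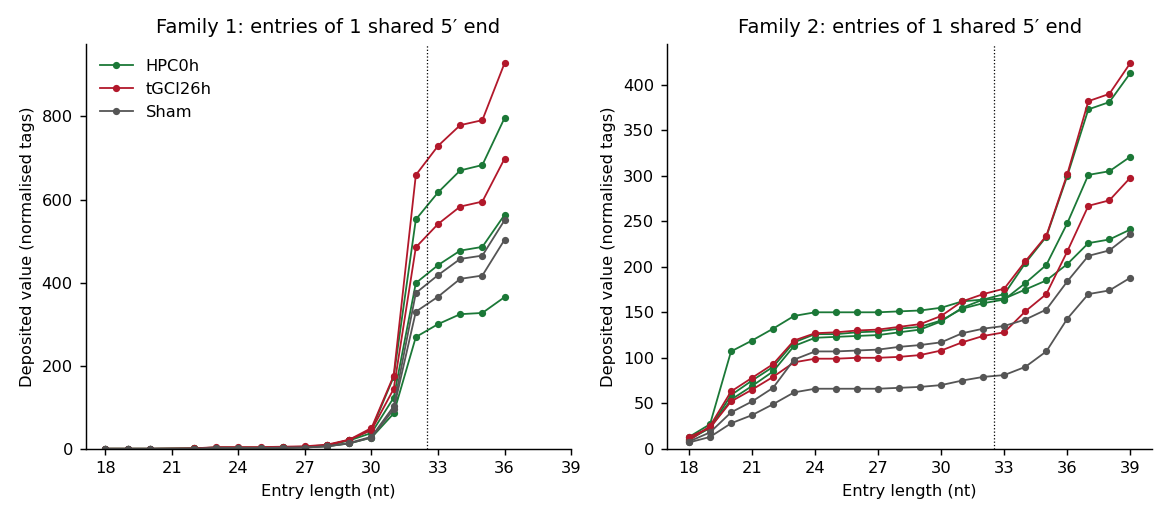
The deposited value in normalised tags is plotted against entry length in nt for the entries of families 1 and 2 that share a 5′ end, 1 line per numbered library, coloured by group, with the dotted line between 32 and 33 nt. In family 1 the steepest step lies between 31 and 32 nt, from a mean of 128 to one of 438, and in family 2 a second climb lies beyond 34 nt.

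The members matched no microRNA hairpin, and 12.1% of them shared a run of 16 bases with a listed piRNA. None of the 214 shared a run of 16 bases with a rat microRNA hairpin of RefSeq (the reference tables name the assembly GRCr8), while 358 of 521 novel_ entries of 18 to 23 nt under the same mean and run conditions did (68.7%). U was the first base of 80 members (37.4%) and A stood at position 10 in 56 (26.2%), against 49.3% and 27.4% of those 521 entries. Among 101 entries of 30 to 32 nt the shares were 46.5% and 30.7%. They were 55.4% and 27.7% in 65 entries of 27 to 29 nt, and 36.7% and 40% in 60 of 24 to 26 nt. Among other entries of 33 to 39 nt they were 37.1% and 23.2% in 237 with a mean under 10. In the 21 left out for a shared run they were 52.4% and 0%. Entries with the same start are each counted in these shares. The classes differ in this, since the 214 members form 49 families and the 521 entries of 18 to 23 nt form 192. No member shared a run with the reverse complement of another. The median GC content was 45.6%. Runs of 16 bases were shared by 26 members (12.1%) with 6 entries that carry rno_piR names. The share was 0.384% in the 521 entries of 18 to 23 nt, 6.93% in the 101 of 30 to 32 nt, and 8.02% in 237 other novel_ entries of 33 to 39 nt with a mean under 10. It was higher, at 28.6% (6 of 21), in the entries of this length and mean that were left out for a shared run. Of the 6 rno_piR entries, rno_piR_000216 was at 0 or blank in every library. rno_piR_028562 was above 0 only in tGCI26h u, with 384. rno_piR_008639 and rno_piR_025314, which shared runs with 9 and 6 members, each had a mean of only 3.43 over the numbered libraries. Members of a family overlap in sequence, so the 12.1% may count the same sequence more than once. The highest of the 6 rno_piR entries was rno_piR_005787 (31 nt), which shared a run with 8 members. It had 533, 577 and 321 in HPC0h a, b and c, 526, 521 and 0 in tGCI26h a, b and u, and 398, 340 and 20 in Sham a, b and u. Its numbered HPC0h and Sham values overlapped, and both numbered tGCI26h values lay above both numbered Sham values.

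A position could be given only to members that lie in the 300-base windows around gene starts in RefSeq (GRCr8, 33469 windows, from 250 bases before the start to 50 after). Of the 214 members, 21 were found whole in 4 windows. Of these, 20 lay in the identical windows of Rn45sl1 and Rn45sl2 on chromosome 11, on the strand opposite to the annotated genes, and 18 of the 20 belong to family 4, which has 20 members itself. RefSeq types both genes as protein-coding and gives no exon or UTR in the tables at hand. The match gives a position only. It does not show that these genes are the source of the members, since the rest of the genome was not searched. The RNA that the members come from is not given in the sources used here. The stretch chr11:488491-488570 of GRCr8, minus strand, is printed from 5′ to 3′ because it carries the best-placed family: capitals mark bases covered by at least 1 member, of which family 4 spans positions 3 to 69, with up to 18 members over 1 base.
Rn45sl1: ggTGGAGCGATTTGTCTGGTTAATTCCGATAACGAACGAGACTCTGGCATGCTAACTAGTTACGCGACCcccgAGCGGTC

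Members in these windows were 9.35% of the set, close to the 8.86% of novel_ entries of 33 to 39 nt under the mean. Among 521 entries of 18 to 23 nt the share was 0.192%. The other located member, novel_11819_x276, lay on chromosome 3 in the windows of LOC134486046 and LOC134486048, on the strand of the genes. The windows cover a small part of the genome, so a member outside them has no position here.

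By level, the 12 highest members came from families 1, 2, 3, 6 and 15. The lead of family 1, novel_7503_x513, had 563, 796 and 365 in HPC0h a, b and c, 698, 928 and 0 in tGCI26h a, b and u, and 503, 550 and 170 in Sham a, b and u. Its 3 shorter members, novel_2983_x1899, novel_5272_x845 and novel_2455_x2502, had means of 538, 528 and 488 and kept the same order of the libraries. In the 7 numbered libraries both tGCI26h values stood above both Sham values, and the HPC0h values ran from below both Sham values to above the lower tGCI26h value.

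The lead of family 2, novel_9031_x397, had 321, 413 and 241 in HPC0h a, b and c, 298, 424 and 1503 in tGCI26h a, b and u, and 188, 236 and 193 in Sham a, b and u. All HPC0h and all tGCI26h values lay above all Sham values, and tGCI26h u was the highest. The other high members of this family, novel_1897_x3699, novel_1469_x5432, novel_4280_x1129 and novel_3016_x1871, are shorter steps of the same sequence, with means of 282, 276, 228 and 183. The lead of family 3, novel_7091_x554, had 191, 296 and 59 in HPC0h a, b and c, 238, 259 and 0 in tGCI26h a, b and u, and 258, 190 and 27 in Sham a, b and u, and its groups overlapped. novel_12294_x261 (family 15), which has 1 relative, had 181, 251 and 146 in HPC0h, 245, 276 and 0 in tGCI26h, and 165, 158 and 34 in Sham. Its numbered tGCI26h values lay above its Sham values and its HPC0h values on both sides of them.

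The members moved up and down together from library to library. Over the 7 numbered libraries 140 members had their highest value in HPC0h b and 139 had their lowest in HPC0h c, although both libraries carry the same label. HPC0h b stood above HPC0h a, and HPC0h a above HPC0h c, in 184 members. tGCI26h b stood above tGCI26h a in 175, and Sham a above Sham b in 181. The summed share of the entries of 30 to 32 nt had the same order: 0.480%, 0.581% and 0.388% in HPC0h a, b and c. It was 0.449% and 0.604% in tGCI26h a and b, and 0.324% and 0.287% in Sham a and b. Entries of 24 to 26 nt and those of 33 to 39 nt under the mean kept this order. Those of 27 to 29 nt and those left out for a shared run did not in tGCI26h, and those of 18 to 23 nt ran the other way. Relative to each member's own mean, the median log2 ratio was 0.00 in HPC0h a, 0.55 in HPC0h b, -0.85 in HPC0h c, 0.01 in tGCI26h a, 0.36 in tGCI26h b, -0.16 in Sham a and -0.67 in Sham b. The highest of a member's 7 values was 3.17 times its lowest in the median, from 1.58 to 9. The distance between HPC0h b and HPC0h c on this scale exceeded that between any numbered tGCI26h library and any numbered Sham library.

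**Figure D2:**
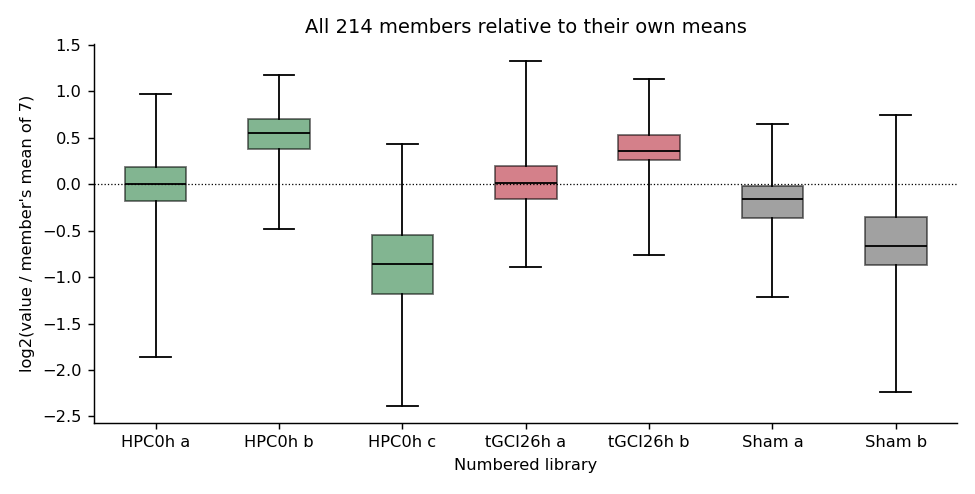
For each numbered library, boxes show the quartiles over the 214 members of the log2 ratio of a member's value to its own mean of the 7, with whiskers to the lowest and highest members. HPC0h b has the highest median and HPC0h c the lowest, on either side of the tGCI26h and Sham libraries.

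Summed over all members, the share of the library total was 1.12%, 1.56% and 0.704% in HPC0h a, b and c, 1.19%, 1.54% and 5.05% in tGCI26h a, b and u, and 0.965%, 0.826% and 0.719% in Sham a, b and u. The means were 1.13% ± 0.43 in HPC0h, 2.59% ± 2.13 in tGCI26h and 0.837% ± 0.123 in Sham (SD, n = 3 each). Without tGCI26h u the tGCI26h mean was 1.37%. The tGCI26h values lay above the Sham values, while the HPC0h values ran from below all Sham values to above both numbered tGCI26h values. The 100 members that lie in no other entry, none of which holds another of them, held 0.544%, 0.769% and 0.334% in HPC0h, 0.566%, 0.752% and 2.19% in tGCI26h, and 0.475%, 0.372% and 0.450% in Sham. The order of the libraries within HPC0h and tGCI26h was the same for both sums.

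**Figure D3:**
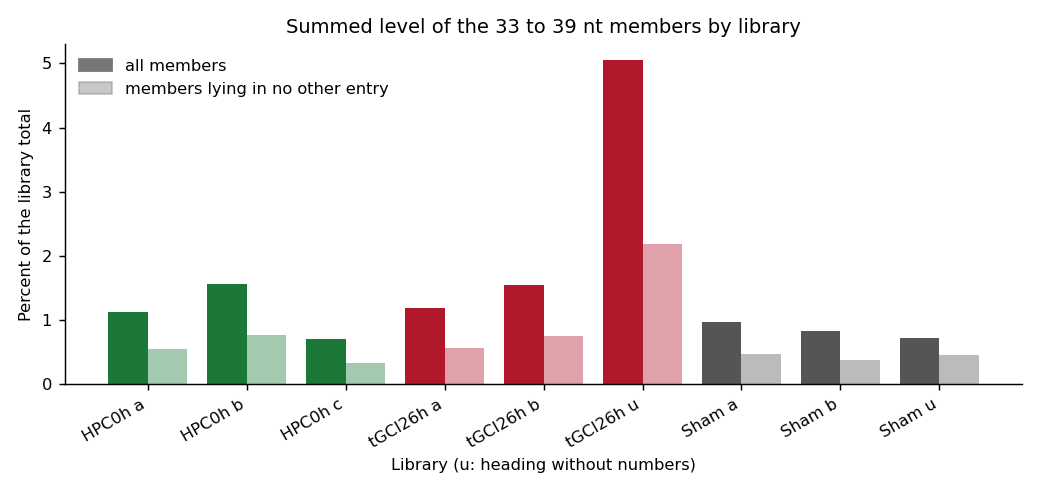
Bars give the percent of the library total held by all 214 members (dark) and by the 100 members lying in no other entry (light) in each library. tGCI26h u stands apart at 5.05%, and the numbered libraries lie between 0.704% and 1.56%.

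Many members were blank in the 2 libraries without numbers in their headings. All 214 members were above 0 in each of the 7 numbered libraries, but 166 (77.6%) were blank in tGCI26h u and 139 (65.0%) in Sham u. The rule that chose the members used the numbered libraries alone, so their presence in those is largely fixed by it. Other entries were often blank there too: 84.2% of the 101 entries of 30 to 32 nt in tGCI26h u and 77.2% in Sham u, 84.6% and 78.5% of the 65 of 27 to 29 nt, and 65.4% and 71.3% of the 237 of 33 to 39 nt under the mean. Of all entries, 708 were above 0 in tGCI26h u and 1201 in Sham u, against 2558 to 2936 in the numbered libraries. Of the 48 present in tGCI26h u, 45 exceeded their highest numbered value, as did 28 of the 75 present in Sham u. The 8 members of family 21 made up much of the sum of tGCI26h u. Their values added to 26634 there and 1853 in Sham u, against 66 to 225 in the numbered libraries. They are steps of nearly the same sequence, each at 3198 or 3723 in tGCI26h u, so these sums may count a tag more than once. The lead of family 21 is printed because no member had a higher single value.
novel_5261_x848: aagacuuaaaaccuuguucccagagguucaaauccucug
It had 21, 59 and 12 in HPC0h a, b and c, 20, 37 and 3723 in tGCI26h a, b and u, and 37, 30 and 479 in Sham a, b and u. The numbered values overlapped between groups, and both u values lay above all of them.

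By family, no member was above 0 in tGCI26h u for 31 of the 49 families or in Sham u for 16, and 12 families had no member above 0 in either library. The sum of a family was above its value in every numbered library for 13 families in tGCI26h u and for 9 in Sham u. Among the larger ones, family 11, whose lead is novel_3604_x1436, summed to 161 to 350 in the HPC0h libraries, 252, 316 and 3951 in tGCI26h a, b and u, and 313, 257 and 2045 in Sham a, b and u. Family 2 summed to 1491 to 2127 in HPC0h, 1567, 2202 and 7380 in tGCI26h a, b and u, and 985, 1295 and 521 in Sham a, b and u. Family 1 summed to 1316 to 2766 in HPC0h, 2417, 3227 and 0 in tGCI26h, and 1695, 1890 and 563 in Sham. Of the 2 families with the highest sums in the numbered libraries, tGCI26h u thus held family 2 above every other library and no member of family 1.

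Some markers of other cells also differed in the 2 unnumbered libraries. Of 11 microRNAs of other cell types (oligodendrocyte, immune, red blood cell, endothelium, muscle and liver), 7 had an entry above 0 that shared 16 bases with them. The highest such entries summed to 7217 to 8577 in HPC0h, 5511 to 8165 in tGCI26h and 4101 to 9177 in Sham. The red blood cell microRNA miR-451-5p had 813 in tGCI26h u and 539 in Sham u, against 28 to 50 in the numbered libraries. An entry sharing 16 bases with the oligodendrocyte microRNA miR-338-3p had 1265 in tGCI26h u and 260 in Sham u, against 1 to 3. The highest entry sharing 16 bases with the endothelial microRNA miR-126a-3p had 3433 in tGCI26h u and 3292 in Sham u, against 7180 to 9130. The other 4 of the 7 reached at most 10 in any library. Among these 4, the other oligodendrocyte microRNA, miR-219a-5p, had 1 in each numbered library and 0 in both u libraries. The other red blood cell microRNA, miR-144-3p, had no entry sharing 16 bases. For the neuronal microRNA miR-9a-5p the highest such entry had 20439 in tGCI26h u and 130853 in Sham u, against 110435 to 123972 in the numbered libraries. For miR-128-3p, the other neuronal microRNA with such an entry, the highest had 21523 in tGCI26h u and 22192 in Sham u, against 40486 to 49345. The part of these differences in the members' values was not tested. Since the libraries are bulk tissue, fewer cells of a type and less RNA per cell cannot be told apart.

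No member passed the test between tGCI26h and Sham when all 9 libraries were fitted together. limma with Benjamini-Hochberg adjustment called 0 of 2824 entries, so the background called was 0%, and 0 of the 214 members. At an unadjusted p below 0.05 it had 39 entries (1.38%) and 1 member, novel_11488_x286. Its sequence is printed as the second branch of family 2.
novel_11488_x286: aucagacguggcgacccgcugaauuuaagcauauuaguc
It had 33, 53 and 66 in HPC0h a, b and c, 63, 88 and 377 in tGCI26h a, b and u, and 32, 15 and 0 in Sham a, b and u. All tGCI26h values lay above all Sham values. The log2 difference, here and below on the log2(value + 1) scale, which understates differences at low values, was 4.00 ± 1.49 (SE), with an adjusted p of 0.781.

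No overlap between the 3 tGCI26h and 3 Sham values, with tGCI26h higher, was found in 16 members (7.48%), against 2.27% of all entries tested, and the reverse in 0 members, against 2.3%. The 16 include nested steps of the same family 2 sequence, among them novel_9031_x397 and novel_1897_x3699, so they are not separate measurements. The count in 9 libraries was not repeated on family sums. Besides novel_11488_x286, the smallest unadjusted p among the 16 belonged to novel_8310_x445, novel_5210_x860, novel_3790_x1346 and novel_14775_x202. Of these, novel_8310_x445 (family 4) had 24, 23 and 520 in tGCI26h a, b and u and 18, 12 and 0 in Sham a, b and u. Its numbered values lay close together, and the u libraries far apart. The other 3 had 63 or 111 in tGCI26h u and were at 0 or blank in Sham u.

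In the 7 numbered libraries alone, tGCI26h had a higher mean log2 value than Sham in 202 of the 214 members (94.4%). The share was 63.7% of all 2608 entries tested. The median log2 difference was 0.61 for the members and 0.21 for all entries. With median-of-ratios, upper-quartile and quantile scaling of those 7 the medians were 0.42, 0.52 and 0.30 for the members and 0.05, 0.14 and -0.02 for all entries, so the difference between the medians, 0.40 as deposited, was 0.32 to 0.38 while all values shifted down. It rested more on single libraries: it was 0.62 when tGCI26h a was left out, 0.15 when tGCI26h b was, and 0.27 when Sham b was, where the members' median was 0.35. With all 9 libraries the members' median was 0.39, against 0.14 for all entries. Leaving out tGCI26h a gave -0.34 for the members and -0.36 for all entries, leaving out tGCI26h b -0.47 and -0.30, and leaving out Sham u -0.87 and -0.46. Both tGCI26h values lay above both Sham values in 127 members (59.3%), against 27.8% of all entries, and below both in 1 member (0.467%), against 7.71%. Since members of a family overlap in sequence, the count was repeated on family sums: 34 of 49 families had both numbered tGCI26h sums above both numbered Sham sums, and 1, the single member novel_14352_x211, was the reverse. The other families overlapped, among them family 3 with sums of 967 and 986 in tGCI26h a and b and 1044 and 741 in Sham a and b. Among the 100 members lying in no other entry it was 68. The same held for the shorter entries above a mean of 10 outside the microRNA range: 75 of 101 entries of 30 to 32 nt (74.3%), 45 of 65 of 27 to 29 nt (69.2%) and 32 of 60 of 24 to 26 nt (53.3%), against 95 of 521 of 18 to 23 nt (18.2%). Within the set the share was 68.6% for members of 33 to 35 nt and 47.9% for those of 36 to 39 nt.

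Of these members limma called 1 in the 7 libraries, against 22 of 2608 entries (0.844%), and 18 members passed an unadjusted p below 0.05, against 329 entries (12.6%). The called member was novel_9540_x368, a single sequence that shares no run with another member.
novel_9540_x368: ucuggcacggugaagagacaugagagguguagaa
It had 13, 15 and 15 in HPC0h a, b and c, 20, 20 and 0 in tGCI26h a, b and u, and 6, 8 and 44 in Sham a, b and u. In the numbered libraries the 3 groups did not overlap, with tGCI26h highest and Sham lowest, and the u libraries went the other way. The log2 difference between tGCI26h and Sham was 1.40 ± 0.16 (SE; adjusted p = 0.0462), and with all 9 libraries it was -0.89 ± 1.37 (adjusted p = 1). In 11 alternatives to the 7-library fit its adjusted p was 0.0586 to 0.345, so it was called in none of them.

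Next by p came novel_10435_x326, also a single sequence, followed by novel_14306_x212, novel_5769_x745 and novel_12889_x244.
novel_10435_x326: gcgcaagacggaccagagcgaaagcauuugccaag
It had 47, 63 and 62 in HPC0h a, b and c, 64, 62 and 0 in tGCI26h a, b and u, and 28, 23 and 27 in Sham a, b and u. All numbered tGCI26h and all HPC0h values lay above all 3 Sham values. The log2 difference between tGCI26h and Sham in the 7 libraries was 1.28 ± 0.18 (SE; adjusted p = 0.0921). novel_14306_x212 had 32 and 35 in tGCI26h a and b and 14 and 15 in Sham a and b, and novel_5769_x745 had 54 and 47 in tGCI26h a and b and 27 and 24 in Sham a and b. novel_12889_x244 had 30 and 26 in tGCI26h a and b, 19 and 15 in Sham a and b, and 110 in Sham u.

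No member passed the test between HPC0h and Sham with all 9 libraries. limma called 0 of 2824 entries (0%) and 0 members, and at an unadjusted p below 0.05 it had 21 entries (0.744%) and 0 members. All HPC0h values lay above all Sham values in 26 members (12.1%), against 13% of all entries, and below in 0 members, against 0.814%. In the 7 libraries it was 33 members higher (15.4%), against 18%, and 1 lower (0.467%), against 4.03%. limma called 0 members there, against 36 of 2608 entries (1.38%), and 15 members passed an unadjusted p below 0.05, against 350 entries (13.4%). The median log2 difference was 0.34 for the members and 0.21 for all entries in the 7 libraries. It was 0.69 without HPC0h c, 0.58 without Sham a, 0.12 without Sham b and -0.0016 without HPC0h b, so its size and sign rested on those libraries. With all 9 libraries it was 1.60, against 0.53 for all entries, and 0.34 without Sham u.

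Both members of family 6 led the comparison of HPC0h with Sham in 9 libraries. They differ by a single substitution, G1U, with the base of novel_3850_x1319 first and positions counted from the 5′ end, and the capital marks it.
novel_3850_x1319: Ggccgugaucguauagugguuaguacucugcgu
novel_12569_x253: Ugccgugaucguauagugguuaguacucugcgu
novel_3850_x1319 had 339, 406 and 312 in HPC0h a, b and c, 207, 471 and 842 in tGCI26h a, b and u, and 226, 142 and 0 in Sham a, b and u. novel_12569_x253 had 196, 205 and 191 in HPC0h, 112, 263 and 97 in tGCI26h, and 107, 67 and 0 in Sham. In both, the 3 HPC0h values lay above every Sham value, while the numbered tGCI26h values lay on either side of them. The log2 difference of novel_12569_x253 between HPC0h and Sham was 3.35 ± 1.68 (SE; adjusted p = 0.822) with 9 libraries and 1.21 ± 0.41 (adjusted p = 0.309) with 7. novel_11488_x286, novel_9337_x379 and novel_9108_x393 followed; the last had 39, 68 and 19 in HPC0h a, b and c and 15, 8 and 0 in Sham a, b and u.

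With the 7 numbered libraries the smallest p values belonged to novel_10435_x326 and novel_9540_x368, at log2 differences between HPC0h and Sham of 1.13 ± 0.17 (SE; adjusted p = 0.0694) and 0.95 ± 0.15 (adjusted p = 0.0791). Without HPC0h a, novel_10435_x326 passed (adjusted p = 0.0348). Among those that followed, novel_14347_x211 is a single sequence with 14, 18 and 18 in HPC0h a, b and c, 11, 18 and 407 in tGCI26h a, b and u, and 6, 8 and 186 in Sham a, b and u. Its HPC0h values lay above the numbered Sham values and below Sham u.
novel_14347_x211: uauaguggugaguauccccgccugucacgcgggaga

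A single member, novel_14352_x211, stood lower in HPC0h than in both other groups of numbered libraries. It ends in a run of 21 A, marked in capitals, and shares no run with another member.
novel_14352_x211: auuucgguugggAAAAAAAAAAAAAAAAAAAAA
It had 10, 26 and 11 in HPC0h a, b and c, 50, 39 and 158 in tGCI26h a, b and u, and 57, 61 and 0 in Sham a, b and u. All HPC0h values lay below all tGCI26h values and below both numbered Sham values. The log2 difference between HPC0h and Sham was -1.97 ± 0.44 (SE; adjusted p = 0.174) in the 7 libraries and -0.0043 ± 1.62 (adjusted p = 1) in the 9, where Sham u was blank. In 3 alternatives to the 7-library fit it passed: with upper-quartile scaling (adjusted p = 0.0442), with quantile normalization (adjusted p = 0.0378) and without HPC0h b (adjusted p = 0.0163).

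No member passed the test between HPC0h and tGCI26h either. With 9 libraries limma called 0 of 2824 entries (0%), and at an unadjusted p below 0.05 it had 8 entries (0.283%) and 0 members. With 7 it called 12 of 2608 entries (0.46%) and 0 members, and 2 members passed an unadjusted p below 0.05, against 183 entries (7.02%). In the 7 libraries HPC0h had a higher mean log2 value than tGCI26h in 13.6% of the members, against 49.7% of all entries tested. The value was lower in 185 members, and the median log2 difference was -0.26 for the members, against 0.00 for all entries. Without HPC0h c that median was 0.11, without tGCI26h b -0.07, and with all 9 libraries it was 1.25, so no direction held throughout. The HPC0h values did not overlap those of tGCI26h in 3 members higher in HPC0h (1.4%), against 8.9% of entries, and in 7 lower (3.27%), against 3.34%. With 9 libraries it was 1 higher (0.467%), against 5.1%, and 1 lower (0.467%), against 1.31%.

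Among the 3 higher members of the 7 libraries was novel_2757_x2131, with 29, 33 and 29 in HPC0h a, b and c and 26 and 23 in tGCI26h a and b. Among the 7 lower members, novel_14352_x211 and novel_9540_x368 had the smallest p, followed by novel_10112_x341, novel_13773_x224 and novel_3260_x1679; the log2 difference of novel_14352_x211 was -1.56 ± 0.44 (SE; adjusted p = 0.595), and without HPC0h b it was -1.97 and passed (adjusted p = 0.0396).

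**Figure D4:**
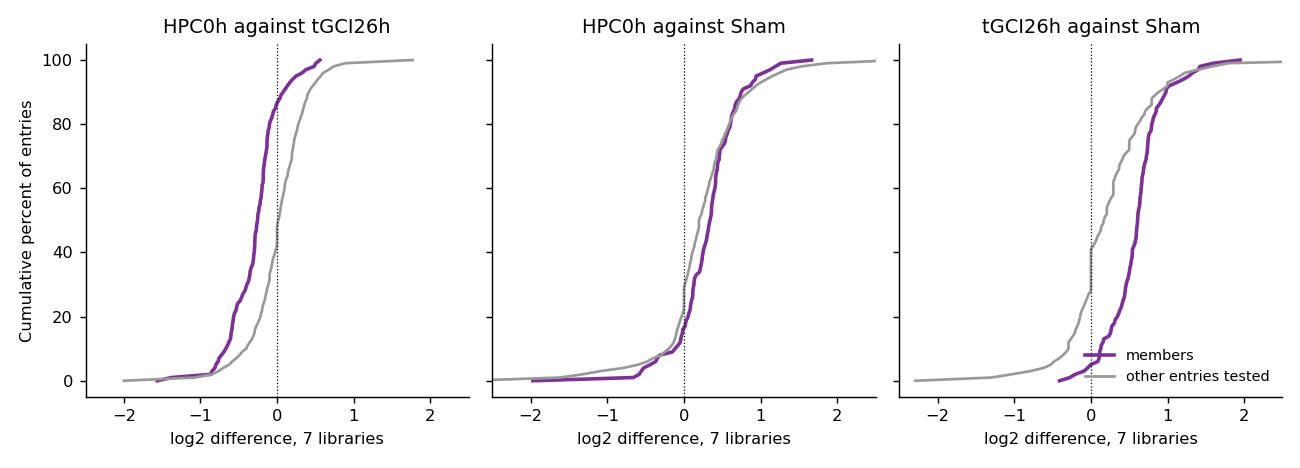
Curves give the cumulative percent of entries by log2 difference in the 7 numbered libraries for the 214 members and for the other entries tested, 1 panel per comparison. For tGCI26h against Sham the members' curve lies right of the other, with medians of 0.61 and 0.17, except near its upper end, where the curves cross. For HPC0h against tGCI26h the members' curve lies left over most of its range.

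**Figure D5:**
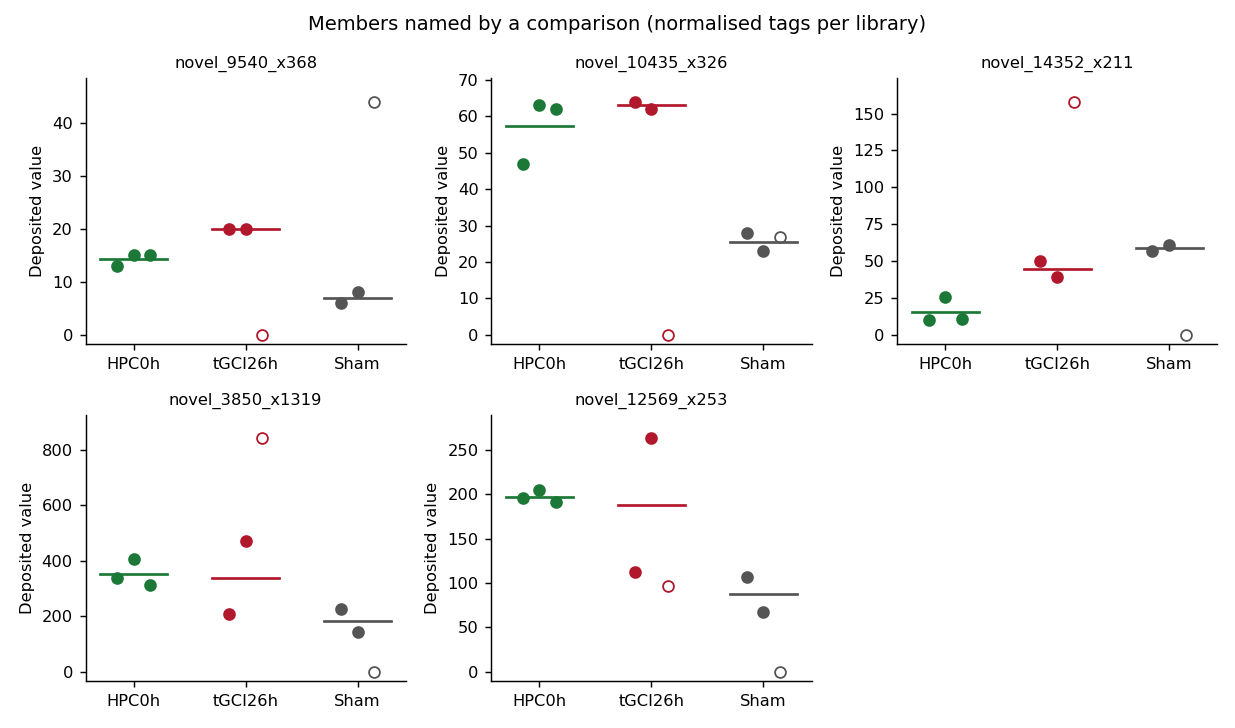
Points give the value of 5 members in each library, filled for numbered libraries and open for those without numbers, and lines give the mean of the numbered libraries of a group. novel_9540_x368 has no overlap between numbered groups, while its open points at 0 and 44 fall elsewhere.

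The leads of the remaining families of 3 or more had mean levels of 22.9 to 158. In the numbered libraries novel_10488_x325, novel_14806_x202, novel_13953_x220, novel_10750_x314, novel_10484_x325, novel_3723_x1372, novel_4507_x1053, novel_5328_x833, novel_9075_x394, novel_11804_x276, novel_3604_x1436, novel_12498_x255, novel_9605_x364, novel_12864_x245, novel_14500_x209 and the lead of family 4 all had their highest value in HPC0h b, tGCI26h b or both.
The lead of family 4, novel_14426_x210, had 117, 148 and 35 in HPC0h a, b and c, 100, 127 and 0 in tGCI26h a, b and u, and 96, 67 and 14 in Sham a, b and u. Its numbered tGCI26h values lay above its Sham values, and its HPC0h values reached below and above them. novel_12788_x247, the lead of family 31, had 21, 30 and 22 in HPC0h a, b and c, 30 and 24 in tGCI26h a and b, and 20 and 13 in Sham a and b. Its numbered HPC0h and tGCI26h values all lay above its numbered Sham values.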

How the data were processed

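Small RNA of CA1 was sequenced in 9 libraries. Total RNA (Trizol) received adaptors at both ends and was copied, amplified, size-selected and read on a HiSeq, per the labels' protocols. Tools listed by the submitters' processing notes, with no role stated, are Novoalign 3.02.12 and cutadapt 1.9.3. The genome build, the rule that predicted the novel_ entries and the assignment of tags to entries are not given in the sources used here. The deposited values are a score, per the file headers: normalised tag counts, which the authors rounded and brought to nearly equal totals. Depth is therefore unknown and no counting interval is given. Column headings carry a group letter or name and no replicate number; those starting with P0 were read as HPC0h, those with 26 as tGCI26h and those with S as Sham. A further 11 lines of the table were empty and were not analysed here.

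Blanks were read as 0. Entries whose mean over the 9 libraries reached 1 were tested on log2(value + 1) by limma 3.58.1 in R 4.3.3. A single fit held all 3 groups, its variance followed the mean level, and p-values were adjusted over all entries by Benjamini-Hochberg, with a threshold of 0.05. The same fit on the 7 numbered libraries is given beside it. The script was tested on simulated data that held no library with many blanks and no shift of a whole library. That test therefore does not show what the fit of all 9 libraries could have called here. Families join members that share an exact run of 16 bases (Python 3.11.15, pandas 2.3.3). Members and lists were chosen with earlier results of these data known. Entries named in the text are the 12 highest members, up to 5 non-overlapping members with the smallest p for each comparison, direction and choice of libraries, the lead of each family of 3 or more, and the 4 entries at the threshold; a family whose members meet this rule is counted in the totals but not reported here. Figures were drawn with matplotlib 3.10.9. Alternatives covered the pseudocount, the filter, 3 scalings, limma without trend or robust, the groups fitted, library type, blanks as missing, the shared run and each library left out.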

Additional observations from a re-analysis of the deposited data

How the results depend on the processing

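No paired analysis was possible because the column headings carry no replicate number. With 9 libraries, 0 members passed in each comparison under every alternative that kept the unnumbered libraries, each library left out in turn included. With the 7 numbered libraries 1 member passed for tGCI26h against Sham, and with upper-quartile scaling or quantile normalization of those 7, both added after seeing the data, 1 passed for HPC0h against Sham. Leaving out 1 of the 7 gave 0 for tGCI26h against Sham, 0 to 1 for HPC0h against Sham and 0 to 1 for HPC0h against tGCI26h.

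The members' median log2 difference for HPC0h against tGCI26h was 1.25 with 9 libraries and reversed to -0.26 with the 7 (also with a mean of at least 10), to -0.16 with library type as covariate, to -0.36 with blanks as missing values, and to -0.30, -0.23 and -0.18 with median-of-ratios, upper-quartile and quantile scaling of the 7. Leaving out 1 library it ran from -0.26 to 2.10, and among the 7 from -0.57 to 0.11. For tGCI26h against Sham it ran from -0.87 to 1.80, and among the 7 from 0.35 to 0.82. For HPC0h against Sham it ran from 0.34 to 2.37, and among the 7 from -0.0016 to 0.69. The cause was not tested.

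Non-overlapping members with 7 against 9 libraries numbered 127 and 16 for tGCI26h above Sham, 1 and 0 below, 1 and 0 for HPC0h below Sham, and 3 and 1 above and 7 and 1 below tGCI26h. As a share of entries of 24 nt and longer, a smaller denominator, the members held 9.49% in HPC0h, 13.3% in tGCI26h and 8.36% in Sham. The tGCI26h mean rested on tGCI26h u, with 20.2%, against 9.54% and 9.98% in tGCI26h a and b. HPC0h a, b and c had 10.1%, 11.4% and 6.97%, and Sham a, b and u had 8.38%, 8.29% and 8.40%. On this measure the numbered tGCI26h values lay within the HPC0h range and above the Sham values. With members of a mean of at least 1 the Sham share was 1.06%. Leaving out 1 library, the share was 0.913% to 1.34% in HPC0h, 1.37% to 3.30% in tGCI26h and 0.773% to 0.896% in Sham. Shared runs of 12 and 20 bases gave 47 and 54 families against 49.

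Among named members, the difference of novel_9540_x368 for tGCI26h against Sham, -0.89 with 9 libraries, reversed to 1.40 with the 7 (also with a mean of at least 10), to 0.57 with blanks as missing, and to 1.23, 1.32 and 1.09 under the 3 scalings of the 7. Leaving out 1 library it ran from -1.63 to 0.57, and among the 7 from 1.22 to 1.58. For HPC0h against Sham it reversed to -0.20 with library type as covariate and ran from -0.40 to 0.95, and among the 7 from 0.77 to 1.13. That of novel_10435_x326 for tGCI26h against Sham, -0.75, reversed to 1.28, to 1.25 with blanks as missing, and to 1.09, 1.18 and 0.96 under the scalings, and ran from -1.76 to 1.25 and among the 7 from 1.14 to 1.41. That of novel_14352_x211 for HPC0h against Sham reversed to 0.29 with a pseudocount of 0.5 and to 0.21 with upper-quartile scaling, and ran from -1.97 to 1.00 leaving out 1 library and from -2.38 to -1.74 among the 7. The sequencing depth is not given, so the limit that it sets is unknown.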
